A study of Mus musculus with 5 samples.

Results

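Endothelial-dominant spots were the spots of 5 neonatal mouse heart sections in which the endothelial cell type (EC) had the highest of 11 cell type scores. A Visium spot is a printed patch that captures the RNA of the several cells lying over it. The scores, deposited with the data, are the authors' probabilities for each cell type in each spot. They were made by comparing the spot with single-nucleus profiles of the same kind of heart. The authors state that they correlate with the share of cells. Spots with fewer than 1000 unique molecular identifiers (UMIs, the tags that count captured RNA molecules) were set aside, which left 3342 of 3364 spots. Of these 3342 spots, 232 (6.94%) were EC-dominant, 3110 had another type on top, and 201 of those 3110 were dominated by endocardial endothelial cells (EndoEC).

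Endothelial cells line every blood vessel. In the heart muscle they form a dense capillary bed that takes up fatty acids for the working cardiomyocytes, and they respond to vascular endothelial growth factor through the receptor Kdr, hold together through the junction proteins Cdh5 and Pecam1, and use Notch ligands and receptors to separate arterial from venous fates. The endocardium is a separate endothelial layer that lines the heart chambers and carries genes such as Npr3 and Plvap.

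All hearts came from wild-type C57BL/6 mice operated on at postnatal day 1, either with a tie around the left anterior descending artery, which causes myocardial infarction (MI), or with a sham operation. One section was taken per heart, 200 μm below the ligature or at the same level of a sham heart, when 3 or 7 days had passed. There was 1 section each of sham day 3, MI day 3 and sham day 7, and there were 2 of MI day 7, so the spread behind each test is that between single sections. The sections answer how infarction and the following days of growth changed the tissue. Values by section are given throughout in the order sham day 3, MI day 3, sham day 7, MI day 7 replicate 1 and MI day 7 replicate 2.

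The sections held 376 to 960 spots with median depths of 20842.5 to 53940 UMIs per spot. The EC-dominant spots numbered 30, 22, 69, 80 and 31 and together held 690967, 896111, 1675418, 4289951 and 667035 UMIs. The sham day 3 table holds raw counts and the other 4 hold counts corrected for depth by the authors, and in all of them levels are given here as counts per 1000000 (CPM) over 13711 shared genes, averaged over the spots of a kind. Xist, the RNA that silences an X chromosome in female cells, was listed in the sham day 3 table and the MI day 7 replicate 1 table (39.0 and 48.5 CPM over all spots), and Ddx3y of the Y chromosome was above 0 in the other 3 (31.6 to 35.6 CPM), so both sexes were present among sham and among MI hearts.

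EC-dominant spots made up 5.52% of the spots in sham day 3 (95% exact binomial interval 3.76 to 7.79), 6.03% in MI day 3 (3.82 to 8.98), 7.19% in sham day 7 (5.64 to 9.01), 11.6% in MI day 7 replicate 1 (9.33 to 14.3) and 3.94% in MI day 7 replicate 2 (2.70 to 5.55). The intervals cover counting error only. The highest and the lowest share both came from MI day 7 hearts, and the MI and sham sections overlapped. The mean share was 7.20 ± 3.97% in MI (SD, n = 3) and 6.36 ± 1.18% in sham (n = 2), a difference of 0.84 points (two-sided exact permutation test, p = 1), and no p under 0.2 can be reached with these sections. Without MI day 7 replicate 1 the difference turned to -1.37 points. In a spot of mixed cells, fewer endothelial cells and less RNA per endothelial cell cannot be told apart.

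By these scores, most EC-dominant spots were mixed, with cardiomyocytes next. A score is not a count of cells: the sum of 23 pan-endothelial genes in members was 1.18 to 1.35 times that in other spots. The median EC score of the members was 61.2, 56.4, 50.5, 53.2 and 50.8%, and it passed 50% in 134 of the 232. The second score was that of CM1, the most widespread cardiomyocyte type of the reference, in 132 members, of CM4, a cardiomyocyte type of regenerating neonatal hearts, in 35, of fibroblasts (FB) in 16 and of EndoEC in 8. At the threshold, 30 members lay within 5 points of the next score and 35 other spots within 5 points of becoming EC-dominant. The closest member, in sham day 7, had an EC score of 43.5% against 43.1% for the next type, and the closest spot outside, also in sham day 7, had 24.9% for EC and 24.9% for CM1, 0.0081 points apart.

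EC-dominant spots lay both in groups and singly. In all, 164 of the 232 had at least 1 EC-dominant neighbour among the spots that touch them, and 10, 7, 25, 11 and 15 members had none, the last being 15 of the 31 in MI day 7 replicate 2. EC-dominant spots made up 22.2, 28.3, 16.2, 36.6 and 11.3% of the neighbours of members and 4.58, 4.80, 6.70, 8.81 and 3.73% of the neighbours of other spots. The share was higher around members in 5 of 5 sections, by a mean of 17.2 points (exact sign-flip permutation test over sections, two-sided, p = 0.063, the smallest 5 sections allow; 0.229 after adjustment over 11 measures of position and depth). Moran's I of the EC score, which is 0 for a score with no spatial order, was 0.24, 0.35, 0.23, 0.45 and 0.18. The largest connected group held 6, 9, 6, 23 and 4 spots, and the group of 23 lay in MI day 7 replicate 1, the section with the most members.

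**Figure D1:**
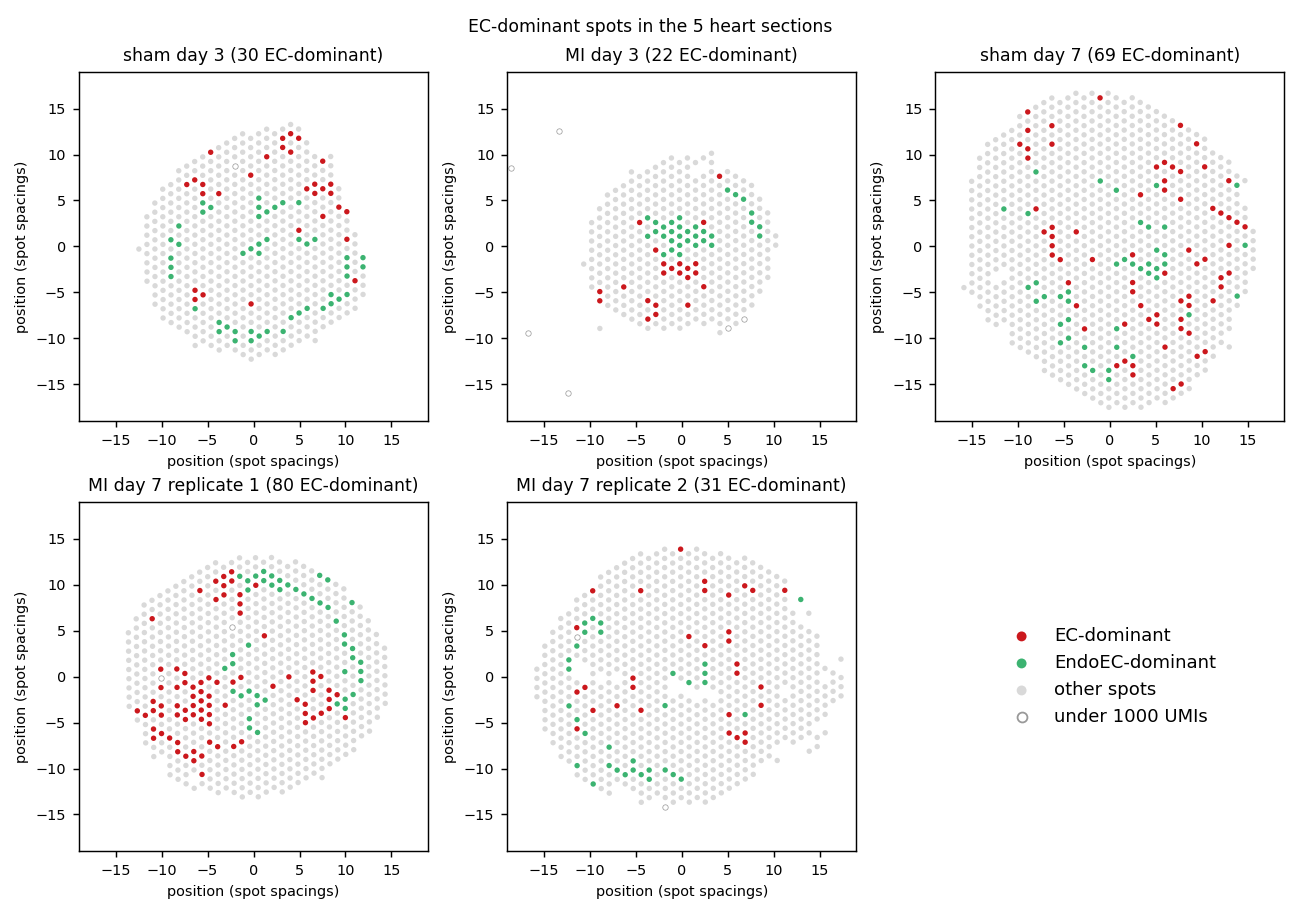
Position of every spot in the 5 sections, both axes in spot spacings from the section's centre, with EC-dominant spots in red, EndoEC-dominant spots in green, other spots in grey and spots under 1000 UMIs as open circles. EC-dominant spots were scattered through the sections in small groups, with the largest group of 23 spots in MI day 7 replicate 1, and 13 stray spots beyond the axes are not drawn.

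The kinds of spot around the members depended on what the members were set against. EndoEC-dominant spots made up 2.34, 4.72, 4.17, 2.73 and 2.26% of the members' neighbours against 9.61, 9.82, 4.68, 7.32 and 4.18% of the neighbours of other spots, which include the EndoEC-dominant spots themselves. Beside CM1-dominant spots, whose neighbours were EndoEC-dominant in 5.16, 3.04, 3.27, 4.91 and 3.92%, the members differed by -0.82 points, lower in 3 of 5 sections and higher in MI day 3 and sham day 7 (exact sign-flip permutation p = 0.438, adjusted 0.535). Of the 201 EndoEC-dominant spots, 36 touched a member. Fibroblast-dominant spots made up 12.9, 10.2, 13.2, 10.5 and 7.34% of the members' neighbours against 23.8, 6.28, 29.2, 14.6 and 12.3% elsewhere, lower in 4 of 5 sections with MI day 3 as the exception (exact sign-flip permutation p = 0.125, adjusted 0.275). Beside CM1-dominant spots, the fibroblast-dominant share around members differed by 2.20 points, higher in the 3 MI sections and lower in both sham sections (exact sign-flip permutation p = 0.375, adjusted 0.516). Members also had more detected genes per spot, with medians of 5152, 6816, 5095, 7092.5 and 4830 against 4842, 6294, 4860, 7022.5 and 4659 in other spots, higher in 5 of 5 (exact sign-flip permutation p = 0.063, adjusted 0.229), while their raw UMIs were higher in 3 of 5 (p = 0.25, adjusted 0.393, same exact test).

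In MI day 3 the members sat nearer the middle of the section than elsewhere. Their mean distance from the centre was 1.17 times that of all spots in sham day 3 and 0.73 times in MI day 3, and their largest group of 9 spots lay next to the central block of EndoEC-dominant spots, as the map shows. Their level of the endocardial gene Plvap, a component of endothelial diaphragms, was 29.3 CPM against 2.55 to 6.24 CPM in the members of the other 4 sections. Their summed level of 3 atrial genes was 15032 CPM, against 7861 CPM in the other spots of that section and 106 to 1421 CPM in the members of the other sections. Most of the members' sum in every section was Nppa, the atrial natriuretic peptide, which the authors also name as a cardiac stress marker. The part that this position has in the MI results was not tested.

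The 5 genes that mark the label were checked first. Fabp4, a fatty acid carrier of capillary endothelium (chr3:10204088-10208576, minus strand, build GRCm38), stood at 2312, 1808, 2105, 1577 and 2028 CPM in EC-dominant spots and at 1455, 1267, 1434, 1156 and 1256 CPM in other spots. Kdr, the main receptor for vascular endothelial growth factor (chr5:75932827-75978458, minus strand), stood at 163, 153, 155, 144 and 166 CPM against 120, 97.3, 124, 115 and 111 CPM. Cdh5, the cadherin of endothelial junctions, stood at 264, 257, 238, 249 and 250 CPM against 203, 182, 207, 199 and 194 CPM. For all 3 genes every EC-dominant value was above every other-spot value.

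Pecam1, a junction protein shared by all endothelium, was 136 ± 10.1 CPM in EC-dominant spots (SD, n = 5 sections), 116 ± 5.37 CPM in other spots and 145 CPM in EndoEC-dominant spots, so it did not separate the endothelial kinds. Dach1, a transcription factor that promotes coronary artery growth, was low everywhere, with 18.4, 15.3, 25.5, 18.2 and 12.4 CPM in members against 14.9, 8.70, 15.3, 17.8 and 14.9 CPM in other spots, lower in MI day 7 replicate 2. These values describe the spots and test nothing, because the scores that chose the spots were computed from the same expression values. Each of these genes was also read in the other spots.

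**Figure D2:**
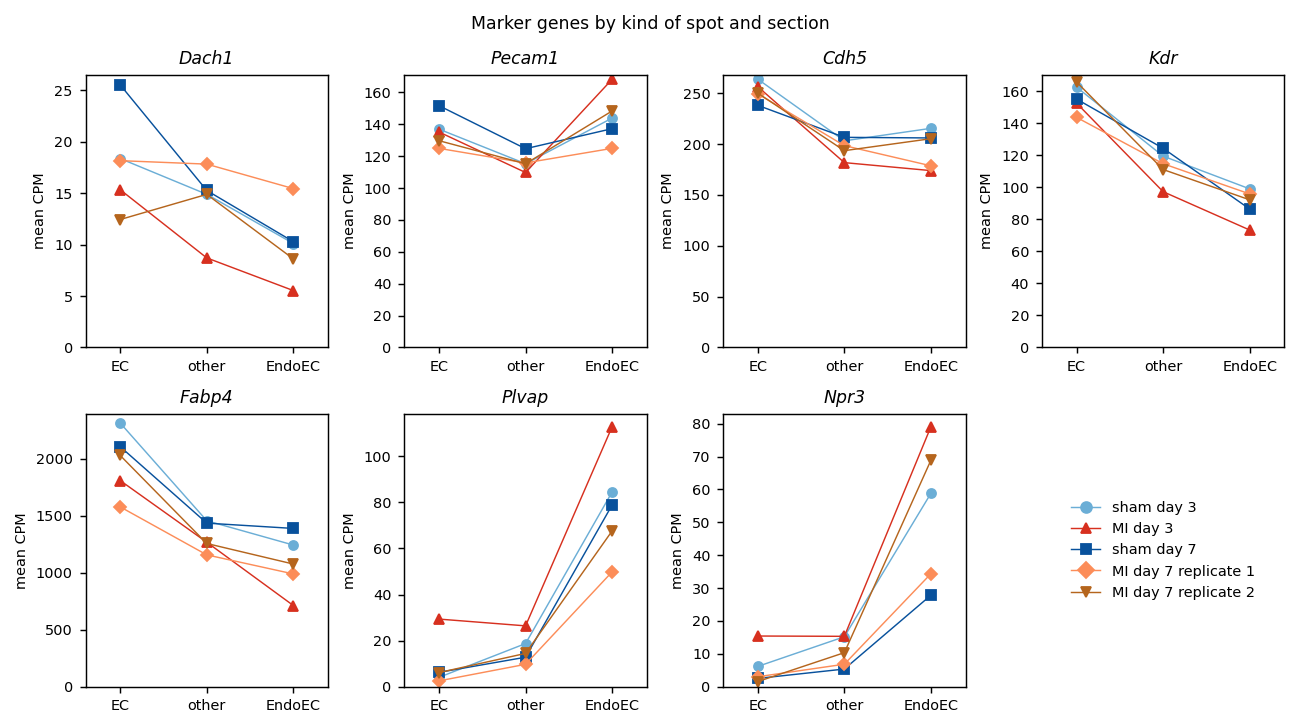
Mean level in CPM (y axis from 0) of the 5 label genes and of the endocardial genes Plvap and Npr3 in EC-dominant, other and EndoEC-dominant spots, with 1 line per section. Fabp4, Kdr and Cdh5 were highest in EC-dominant spots of every section, and Plvap and Npr3 were highest in EndoEC-dominant spots.

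The other spots were also read by their distance from the nearest member. Fabp4 was 1691, 1402, 1521, 1217 and 1403 CPM in the other spots that touch a member, 1526, 1263, 1423, 1085 and 1298 CPM in the next ring, and 1354, 1220, 1381, 1152 and 1196 CPM farther away. The touching spots were above the farthest spots in each of the 5 sections. They were also below the members, which the rule favours, since it took out of the touching spots every spot whose highest score was EC. Kdr had 131, 107, 135, 126 and 122 CPM in touching spots, while the farthest spots had 111, 97.1, 121, 112 and 106 CPM. The sum of 23 pan-endothelial genes was 1.04 to 1.17 times as high in touching as in the farthest spots, and that of 11 capillary genes 1.07 to 1.17 times. The fibroblast sum was lower in touching than in the farthest spots (ratios 0.84, 0.98, 0.68, 0.96 and 0.69). These rings were chosen after the data had been seen, and the values are a description with no test.

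**Figure D3:**
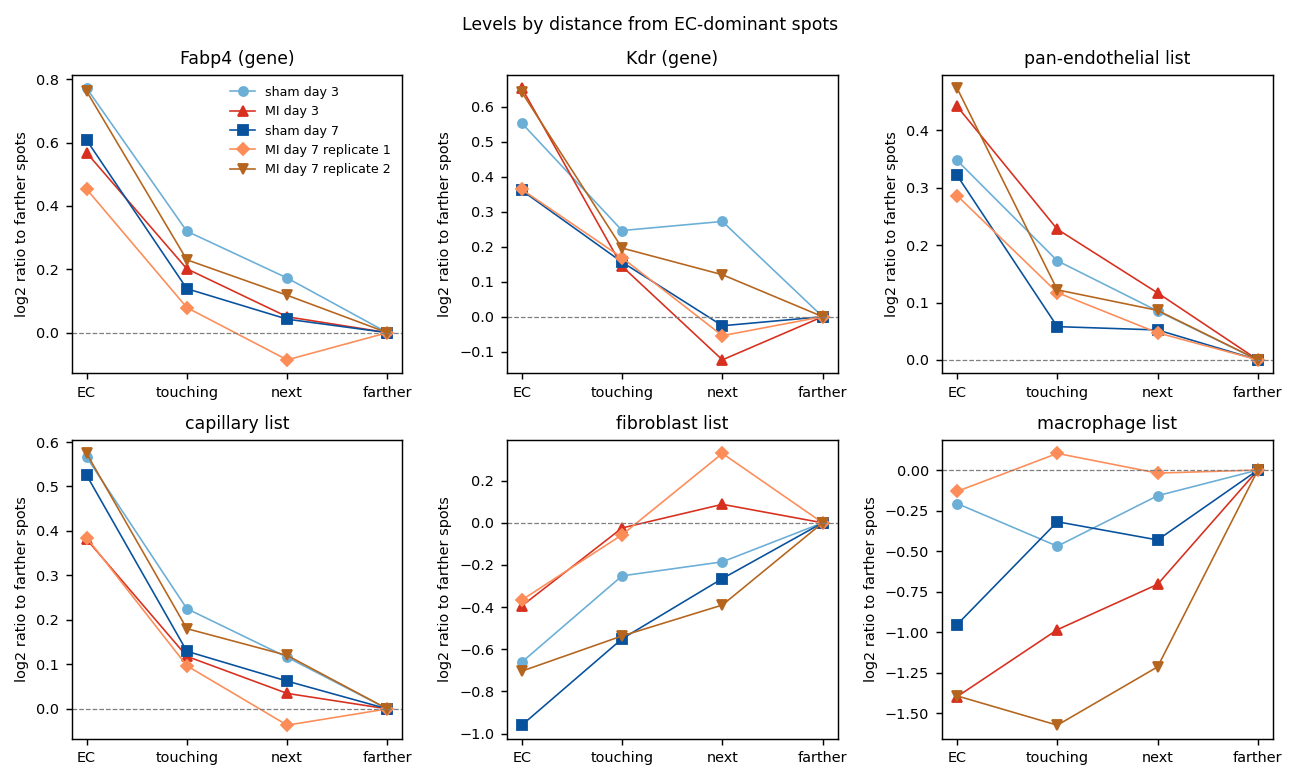
Levels in EC-dominant spots, in other spots touching them, in the next ring and farther away, as log2 ratios to the farthest spots, for Fabp4, Kdr and the summed CPM of 4 gene lists, with 1 line per section. The endothelial panels fall from EC-dominant to touching spots in every section, a step that the choice of members favours, while the fibroblast and macrophage panels are lowest at or beside the EC-dominant spots in most sections.

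Against all other spots, EC-dominant spots were higher in 8 of 23 pan-endothelial, 5 of 11 capillary and 3 of 6 venous genes, and lower in 7 of 9 fibroblast and 2 of 11 macrophage genes. With limma (fitted on log2(CPM + 1), blocked by section, Benjamini-Hochberg adjusted p under 0.05), 80 of 13419 genes were higher (0.596%) and 73 lower (0.544%), and with median-of-ratios scaling, which put the median gene at -0.04 in place of 0.01, the split was 50 higher and 96 lower. Without the section block no gene passed, and with 1 section left out 37 to 91 were higher and 37 to 80 lower, the fewest without MI day 7 replicate 2 (37 and 37) and without sham day 7 (43 and 37). Since the scores came from the same values, passing this threshold says how alike the 5 sections were and is no test of the rule. Differences below are log2 differences with their standard error (SE).

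Of the 23 pan-endothelial genes, 8 passed as higher and none as lower, all 23 had a positive difference, 17 of them the same direction in all 5 sections (as in 6.8% of all genes tested), and the median was 0.32 against 0.01 over all genes tested. Kdr differed by 0.46 (SE 0.07, limma adjusted p = 0.000386) and Cdh5 by 0.35 (SE 0.05, limma adjusted p = 0.000885). Cldn5, the claudin of endothelial tight junctions, had 136, 105, 121, 88.0 and 107 CPM in members against 103, 68.8, 92.4, 70.1 and 76.0 CPM in other spots (0.44, SE 0.07). The other 5 were the orphan receptor Tie1 (0.40), the adhesion proteins Esam (0.41) and Icam2 (0.39), the secreted factor Egfl7 (0.43) and Cd34 (0.25), a surface glycoprotein of capillary and progenitor cells.

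Among the 11 capillary genes, 5 passed as higher, 10 were positive and the median was 0.40. Fabp4 had the smallest adjusted p of the list (0.57, SE 0.04, limma adjusted p = 1.57e-08). Gpihbp1, which carries lipoprotein lipase to the capillary wall, had 170, 161, 200, 174 and 173 CPM in members against 125, 122, 153, 136 and 141 CPM (0.38). Aqp1, a water channel, was higher in 4 sections, at 128 to 194 CPM against 65.9 to 124 CPM, and lower in MI day 3, at 82.3 against 86.3 CPM (0.57). Fabp5, a second fatty acid carrier (0.31), and the transcription factor Tcf15 (0.45) completed the 5. The summed capillary level was 1.41, 1.27, 1.38, 1.29 and 1.43 times that of other spots.

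Of 6 venous genes in the tables, 3 passed as higher, 4 were positive and 2 negative (Vwf at -0.44 and Vcam1 at -0.61, neither past the threshold). Aplnr, the apelin receptor of venous and capillary endothelium, stood at 170, 71.0, 133, 182 and 167 CPM in members against 90.0, 76.5, 70.3, 105 and 92.6 CPM in other spots (0.67, SE 0.11, limma adjusted p = 0.0014), so MI day 3 was again the exception. Ephb4, the venous receptor for ephrin-B2, differed by 0.45, and Nrp2, a co-receptor for vascular growth factors and semaphorins, by 0.48. No arterial gene passed among 12, and 7 were positive. The sum of the arterial genes was 0.89, 1.55, 0.70, 0.89 and 1.09 times that of other spots, and only MI day 3 stood well above 1.

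Signalling genes passed in ones and twos. Notch4, the endothelial Notch receptor, had 39.8, 56.2, 39.5, 34.1 and 41.4 CPM against 22.7, 21.8, 27.8, 31.1 and 30.6 CPM (0.63, SE 0.14, limma adjusted p = 0.019) and was the only one of 11 Notch genes to pass. Id1, a target of bone morphogenetic protein signals, was the only one of 9 in its list (0.41). Of 10 genes of flow and nitric oxide biology, the caveolar genes Cav1 (0.39) and Cavin2 (0.31) passed, and of 9 basement membrane genes, Col4a1 (0.23). None of 10 hypoxia genes and none of 12 cell cycle genes passed, though all members of both lists were positive.

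The genes with the largest rises outside these lists were of several kinds. Gimap4, a GTPase known from lymphocytes, had 71.8, 77.9, 74.4, 63.9 and 69.7 CPM in members and 35.8, 49.5, 44.2, 46.3 and 50.2 CPM in other spots (0.66, SE 0.09, limma adjusted p = 0.00033), and every member value was above every other-spot value. Nts, the neurotensin precursor, had the largest difference (0.78, SE 0.15), at 23.6, 30.6, 27.7, 44.0 and 33.6 CPM against 16.8, 25.5, 14.1, 18.5 and 15.8 CPM. Lmo2, a transcription cofactor of blood and endothelium (0.63), Pcdh12, an endothelial protocadherin (0.59), the peptidase Prcp (0.69), the protease Klk8 (0.76), the cytokine receptor chain Il2rg (0.70), the synaptic scaffold gene Shank3 (0.61) and Ly6a (0.62), whose reads may be shared with close family members, were the others.

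Of 9 fibroblast genes, 7 passed as lower and none as higher, with a median of -0.55. Col1a1, a chain of type I collagen, had 472, 879, 375, 636 and 786 CPM in members against 700, 1253, 658, 847 and 1315 CPM (-0.61, SE 0.05, limma adjusted p = 1.7e-07). Col3a1 had 1126, 1547, 1193, 1698 and 2130 CPM against 1719, 2107, 2005, 2354 and 3046 CPM (-0.56), and Postn, a matrix protein of activated fibroblasts, fell by 0.55. These 3 genes were lower in all 5 sections, as were 3.76% of all genes tested. Col1a2 (-0.63), Dcn (-0.37), Lum (-0.33) and Mfap4 (-0.55) were the other 4.

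Of 11 macrophage genes, Lyz2, the myeloid lysozyme (-0.93, SE 0.11), and C1qc, a chain of complement C1q (-0.70), passed as lower. Lyz2 had 27.0, 246, 25.1, 65.9 and 66.5 CPM in members against 42.1, 703, 52.2, 83.8 and 149 CPM in other spots. C3, the central complement component, fell by 1.68. Tnc, a matrix protein of healing tissue, fell by 0.83 and Sfrp2, a Wnt antagonist, by 1.13. None of 10 cardiomyocyte genes passed, and their sum was 0.94 to 1.07 times that of other spots, on both sides of 1. Of 13 mitochondrially encoded genes, 9 passed as lower, by 0.12 to 0.23.

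**Figure D4:**
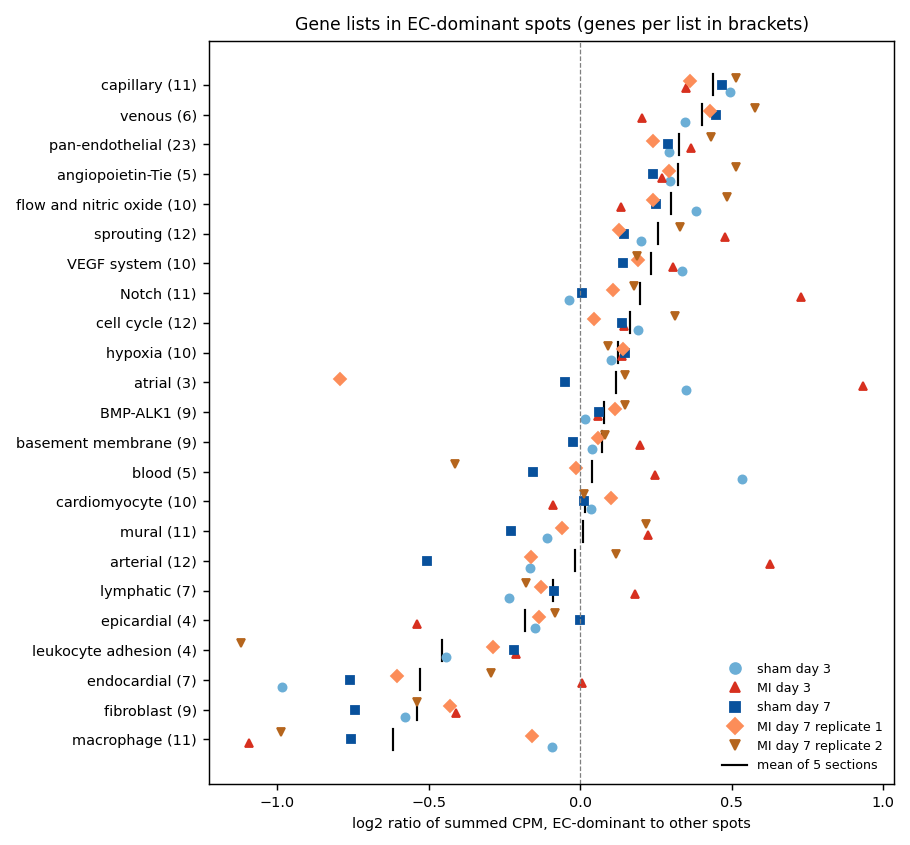
Summed CPM of each gene list in EC-dominant spots relative to other spots of the same section, as log2 ratios on the x axis, with 1 symbol per section and a bar at the mean of 5 sections. Capillary, venous and pan-endothelial lists lie right of 0 in every section, the fibroblast and macrophage lists lie left of 0 in every section, and MI day 3 stands to the right in the Notch, arterial and atrial lists.

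EndoEC-dominant spots are those scored highest for the endothelium of the chamber lining, and the members differed from them in capillary, endocardial, fibroblast and cardiomyocyte genes. Of 13536 genes, 136 were higher (1%) and 291 lower (2.15%) in EC-dominant spots (limma, blocked by section), again as a description of spots chosen by scores, and with 1 section left out the counts were 65 to 122 and 167 to 326. Without the section block 14 were higher and 67 lower. Of the 11 capillary genes, 9 were higher and 1 lower, with a median of 0.94. Of 7 endocardial genes, 5 were lower (Npr3, Cytl1, Plvap, Nrg1 and Cgnl1), with a median of -2.45. Of 9 fibroblast genes, 8 were lower. Of 10 cardiomyocyte genes, 5 passed as higher (Myh6, Tnnt2, Actc1, Myl3 and Ryr2), all 10 were positive with a median of 0.15, and their sum was 1.13, 1.21, 1.08, 1.08 and 1.06 times that of EndoEC-dominant spots. The part that these other cells have in the contrast was not tested.

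Plvap had 4.08, 29.3, 6.24, 2.55 and 6.14 CPM in EC-dominant spots and 84.5, 113, 78.9, 49.9 and 67.6 CPM in EndoEC-dominant spots (-3.31, SE 0.24, limma adjusted p = 3.6e-08). Npr3, the natriuretic peptide clearance receptor, had 6.18, 15.4, 2.53, 3.04 and 1.58 CPM against 58.8, 79.1, 27.9, 34.4 and 68.9 CPM (-3.25, SE 0.28). Vwf, the clotting factor carrier stored by endothelium, had 12.7, 27.0, 14.7, 10.7 and 23.8 CPM against 35.7, 88.4, 93.7, 102 and 164 CPM (-2.31, SE 0.20). The kinds did not overlap for any of these 3 genes, and MI day 3 had the highest EC value of each. Cytl1 (-3.18) and Foxc1, a transcription factor of endocardial and mural development (-2.49), were also among the 10 largest falls.

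In the other direction, Aplnr stood at 170, 71.0, 133, 182 and 167 CPM in EC-dominant spots and at 72.6, 21.1, 60.6, 66.1 and 83.0 CPM in EndoEC-dominant spots (1.30, SE 0.11, limma adjusted p = 2.3e-07). Cldn5 differed by 1.24, Aqp1 by 1.04, Rgcc, a cell cycle regulator of capillary endothelium, by 1.07 and Pcdh12 by 1.03. Myh11, the myosin of smooth muscle, had the largest rise, at 19.1, 41.0, 14.0, 11.7 and 30.3 CPM against 2.16, 2.78, 7.25, 5.39 and 14.5 CPM (1.80, SE 0.35, limma adjusted p = 0.0042), and was the only one of 11 mural genes to pass.

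Not every endothelial gene followed the label. Fabp5 was lower in EC-dominant spots, at 531, 553, 535, 286 and 477 CPM against 779, 1276, 711, 431 and 614 CPM in EndoEC-dominant spots (-0.62, SE 0.09), although its relative Fabp4 was higher (0.88). Of the 23 pan-endothelial genes, 8 were higher in EC-dominant spots, Kdr and Cdh5 among them, and 5 were lower: the angiopoietin receptor Tek (-0.50), the transforming growth factor co-receptor Eng (-0.70), the sialomucin Emcn (-0.95), Ramp2 (-0.47), a subunit of the adrenomedullin receptor, and Mmrn2 (-0.64). Of the 9 bone morphogenetic protein genes, Eng, Smad6, Id2 and Id3 were lower, Id2 by 1.55. Of the Notch genes, Notch4 and the ligand Jag2 were higher and Notch1 was lower.

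The comparison of MI with sham asked how the endothelial spots changed after infarction, and used sections as replicates with day as a second term. Sham day 3, the only section with raw counts, was 1 of the 2 sham and 1 of the 2 day 3 sections. The kind of table therefore runs partly along both terms, here and in the comparisons below, and its part was not tested. In EC-dominant spots 19 of 13125 genes were higher in MI (0.145%) and 1 was lower (0.00762%), and among the higher ones were genes known from the extracellular matrix, such as Fbln1 and Eln, and from macrophages, such as Lyz2. None of the genes in the endothelial lists passed in either direction with all 5 sections. The count leaned on single libraries: it was 132 higher and 30 lower without sham day 7, and 2 higher and 0 lower without MI day 7 replicate 2, with 7 to 12 higher without any 1 of the other 3.

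Genes of secreted matrix proteins are taken first. Fbln1, a matrix glycoprotein, had 22.3, 109, 23.8, 66.5 and 79.6 CPM (1.86, SE 0.24, limma adjusted p = 0.00069), so each MI section was above both sham sections. Mfap4, a protein of elastic microfibrils (chr11:61485431-61488900, plus strand), had 23.2, 229, 55.7, 105 and 130 CPM (2.0, SE 0.31, limma adjusted p = 0.0037). Eln, elastin, had 131, 455, 120, 189 and 330 CPM (1.37, SE 0.22, limma adjusted p = 0.0043). In each of the 3 genes MI day 3 was the highest section.

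Mgp, an inhibitor of calcification (chr6:136872435-136875823, minus strand), had 71.3, 449, 118, 178 and 227 CPM (1.57, SE 0.27, limma adjusted p = 0.0095). Col1a1 rose by 0.91 (limma adjusted p = 0.022), the proteoglycan Bgn by 1.23, the gelatinase Mmp2 by 1.02, the secreted protease Htra3 by 1.15 and Adamtsl2, a microfibril-binding protein, by 2.63. Igfbp5, a secreted binder of insulin-like growth factors (chr1:72857932-72874884, minus strand), had 55.1, 273, 43.8, 79.5 and 75.4 CPM (1.44, SE 0.25, limma adjusted p = 0.012). All these genes were higher in every MI section than in either sham section, as were 9.63% of all genes tested, while 9.4% were lower.

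Apoe, the lipid carrier that macrophages make in quantity (chr7:19696109-19699188, minus strand), had 109, 677, 72.0, 178 and 193 CPM in EC-dominant spots (1.90, SE 0.22, limma adjusted p = 0.00023), the smallest p of the comparison. In other spots of the same sections it had 192, 888, 125, 226 and 359 CPM. Lyz2 had 27.0, 246, 25.1, 65.9 and 66.5 CPM (2.13, SE 0.29, limma adjusted p = 0.00089) against 42.1, 703, 52.2, 83.8 and 149 CPM in other spots. Both genes were higher in other spots than in EC-dominant spots of every section.

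Clu, the chaperone clusterin, had 51.1, 811, 46.2, 55.0 and 114 CPM (2.13, limma adjusted p = 0.027), and MI day 3 carried most of the rise. Ctss, a lysosomal protease of antigen-presenting cells, passed (2.18, limma adjusted p = 0.013) although its groups overlapped, at 17.6 and 1.87 CPM in sham and 63.7, 11.9 and 18.4 CPM in MI. The others were Glo1, which clears methylglyoxal (165, 301, 104, 259 and 321 CPM), Cyfip2, of the actin-regulating WAVE complex (2.49), the receptor subunit gene Gsg1l (2.27), the uncharacterised AI506816 (4.03) and Tpm3-rs7 (2.49), a tropomyosin-related copy whose reads may belong to its parent gene. For Cyfip2, Gsg1l, AI506816 and Tpm3-rs7 only the difference is given, and whether they stepped between single hearts apart from MI was not tested. Slc38a4, an amino acid transporter (chr15:96994820-97055956, minus strand), was the only gene to fall, with 151 and 98.6 CPM in sham and 48.9, 47.5 and 32.7 CPM in MI (-1.43, SE 0.23, limma adjusted p = 0.0041).

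**Figure D5:**
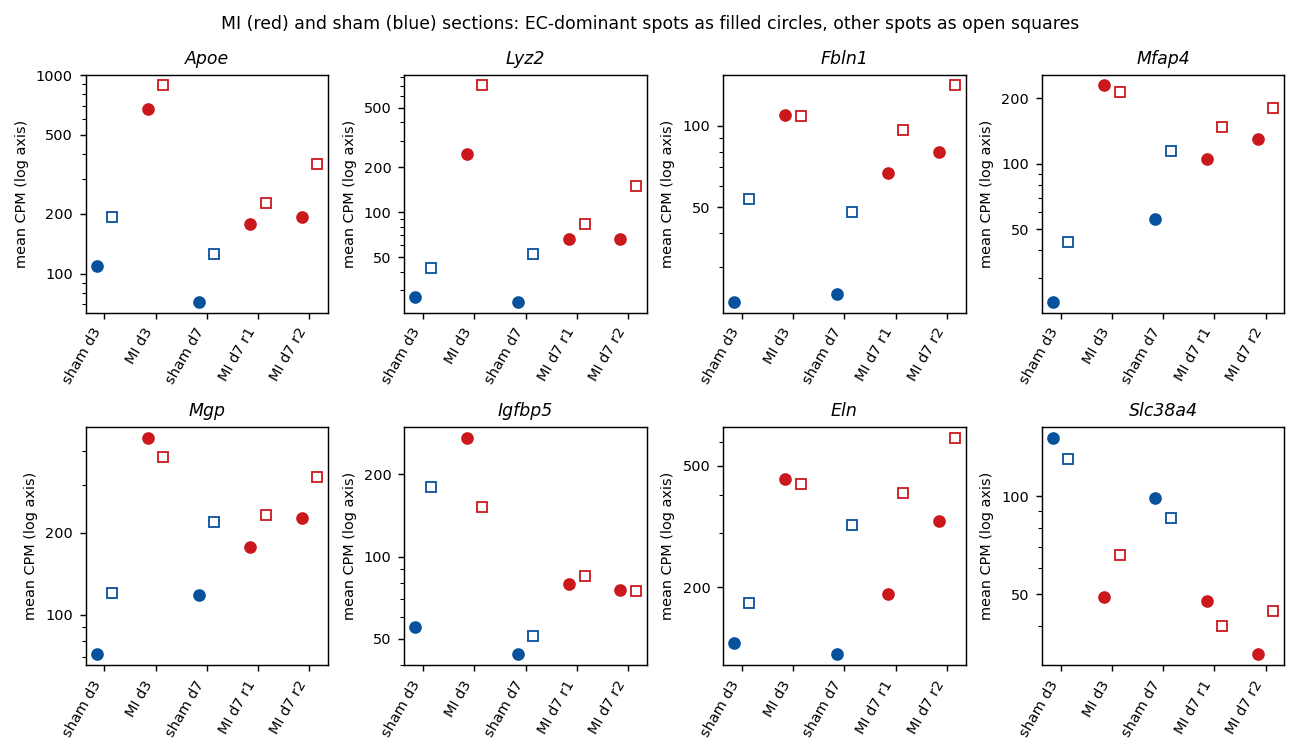
Mean CPM on a log axis of 8 genes that passed between MI and sham in EC-dominant spots, by section, with EC-dominant spots as filled circles and other spots as open squares, MI in red and sham in blue. In every panel the filled red points lie on one side of the filled blue points, above them for all genes but Slc38a4.

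Markers of other cells moved with MI in the same spots. The summed level of 9 fibroblast genes was 3023 and 2977 CPM in sham and 4724, 4311 and 5284 CPM in MI, all 9 were higher in MI and 2 passed (Col1a1 and Mfap4). The summed level of 11 macrophage genes was 135 and 93.8 CPM in sham and 536, 207 and 171 CPM in MI, all 11 were higher and Lyz2 passed. None of the 5 haemoglobin and erythroid genes passed, though all 5 were higher (median 0.82). Of 11 mural genes 10 were higher (median 0.26), and all 10 cardiomyocyte genes were lower (median -0.14), with none passing in either list. Whether these cells account for the matrix and macrophage genes that rose was not tested.

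With all 5 sections, the endothelial genes themselves gave no call. In every section the members were chosen by an EC score computed from the same expression values, which favours like levels of these genes in MI and sham members and at both days, so the lack of a call does not show that endothelial expression was unaltered. Without sham day 7, 2 arterial, 1 Notch and 2 sprouting genes passed as higher, in lists that share genes, and 1 venous gene passed as lower. Fabp4 differed by -0.29 (SE 0.19, limma adjusted p = 0.83), Kdr by -0.04 (SE 0.18), Cdh5 by 0.02 (SE 0.17, -0.01 with median-of-ratios scaling), Pecam1 by -0.15 (SE 0.18) and Dach1 by -0.52 (SE 0.35). Of the 23 pan-endothelial genes 11 were positive and 12 negative, with a median of -0.04 beside 0.02 for all genes. The median was -0.28 over the 11 capillary genes (10 negative), 0.36 over the 12 arterial genes (11 positive), 0.23 over the 11 Notch genes (11 positive), 0.21 over the 9 basement membrane genes (9 positive) and -0.30 over the 12 cell cycle genes (12 negative). The Notch median was -0.01 without either day 3 section and the cell cycle median 0.01 without sham day 7, so these list values rested on single sections.

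Whether MI changed EC-dominant spots more than the other spots was tested as a difference of differences. Of 13419 genes, 3 passed (0.0224%), all with a larger MI effect in EC-dominant spots. Igfbp5 had an MI effect larger by 1.19 (SE 0.21, limma adjusted p = 0.0021), Mgp by 0.68 (SE 0.12, limma adjusted p = 0.0027) and Mfap4 by 0.74 (SE 0.15, limma adjusted p = 0.024). None passed with a smaller effect, and at an unadjusted p under 0.05 there were 433 larger and 297 smaller. None of the 3 passed without sham day 3, without MI day 3 or with median-of-ratios scaling. Genes of other cells moved the same way: all 9 fibroblast genes, Mfap4 among them, had a larger MI effect in EC-dominant spots (median 0.32, 6 not overlapping), as did 9 of 11 mural genes (median 0.42, 4 not overlapping, none passing), beside a median of 0.02 over all genes, of which 11.5% did not overlap in this direction. The summed fibroblast level of members was 0.67 and 0.60 times that of other spots in sham and 0.75, 0.74 and 0.69 times in MI, and the mural one 0.93 and 0.85 times in sham and 1.17, 0.96 and 1.16 times in MI. The part of these cells in the 3 genes was not tested.

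Igfbp5 in other spots had 180, 152, 51.3, 84.7 and 74.9 CPM, so at day 3 the level rose from 55.1 to 273 CPM in EC-dominant spots and went from 180 to 152 CPM in the rest, while the day 7 levels of both kinds lay close together. EndoEC-dominant spots, which are among the other spots, had 848, 314, 149, 227 and 166 CPM. Mgp in other spots had 120, 380, 219, 232 and 322 CPM, and EC-dominant spots were above them only in MI day 3. Mfap4 in other spots had 43.5, 213, 114, 148 and 180 CPM, with the same exception.

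No arterial or Notch gene passed in this test with all 5 sections. All 12 arterial genes had a larger MI effect in EC-dominant spots (median 0.59) and 2 of them did not overlap between MI and sham sections, where 11.5% of all genes did so in this direction and 8.44% in the other. All 11 Notch genes did too (median 0.44), and 4 did not overlap. Sema3g, a semaphorin of arterial endothelium, had the largest value, at 7.24, 24.5, 3.21, 7.44 and 14.7 CPM in EC-dominant spots against 7.50, 8.12, 11.5, 8.26 and 5.23 CPM in other spots (1.89, limma adjusted p = 0.19). Jag1, a Notch ligand, had 13.0, 31.9, 18.8, 14.2 and 15.7 CPM (0.96, limma adjusted p = 0.68). Without either day 3 section the arterial median was 0.53, with 10 of 12 genes positive, and the Notch median 0.16, with 7 of 11 positive, while without sham day 7, 2 arterial genes and 1 Notch gene passed. The summed arterial level of members was 1.55 times that of other spots in MI day 3, 0.89 and 1.09 times in MI day 7, and 0.89 and 0.70 times in sham. The summed Notch level of members was 0.98, 1.66, 1.00, 1.08 and 1.13 times that of other spots, highest in MI day 3. Of the 11 capillary genes, 10 had a smaller MI effect in EC-dominant spots (median -0.13).

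From day 3 to day 7 the falls in EC-dominant spots included Angptl4 and Myh7, and the rises included Ckmt2. Whether the day changes differed between EC-dominant and other spots was not tested. In a fit with surgery as a second term, 29 of 13125 genes were higher at day 7 (0.221%) and 45 lower (0.343%). The median of all genes was -0.16, and with median-of-ratios scaling it was -0.02 and the split became 85 higher and 42 lower, so differences below should be read against -0.16. The days did not overlap for 7.14% of genes that were higher and 21.5% that were lower at day 7. The counts rested on single sections, at 59 higher and 99 lower without sham day 3, 17 and 14 without MI day 3, 55 and 113 without sham day 7, 5 and 8 without MI day 7 replicate 1, and 6 and 14 without MI day 7 replicate 2.

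Angptl4, a fasting-induced inhibitor of lipoprotein lipase, had 125 and 110 CPM against 19.3, 13.7 and 24.7 CPM (-2.57, SE 0.27, limma adjusted p = 1.5e-05). Acot1, an acyl-CoA thioesterase with a near-identical neighbour, fell by 1.92. For both genes the 2 day 3 sections were above each day 7 section.

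Myh7, the slow myosin of the fetal ventricle, had 1795 and 3133 CPM at day 3 and 515, 649 and 1126 CPM at day 7 (-1.84, SE 0.20, limma adjusted p = 2.5e-05), in spots whose second type was most often a cardiomyocyte. All 3 atrial genes in the tables passed as lower, with Myl7 at -3.30 and Myl4 at -1.76, but the summed atrial level was 891 and 15032 CPM at day 3 and 328, 106 and 1421 CPM at day 7, so 1 section, MI day 3, stood far above the rest and sham day 3 lay below MI day 7 replicate 2. The list's median was -3.30, and without MI day 3 it was -1.42 with 1 of the 3 genes passing (Nppa). Without MI day 7 replicate 1, 1 of the 3 passed, again Nppa. Nppa, the atrial natriuretic peptide, had 803, 14927, 300, 94.2 and 1400 CPM (-3.67, limma adjusted p = 0.013), and its days overlapped. Among genes that rose, Ckmt2, the mitochondrial creatine kinase of muscle, had 339 and 149 CPM at day 3 and 822, 752 and 737 CPM at day 7 (1.87, SE 0.20, limma adjusted p = 1.5e-05). Rpl3l, a ribosomal protein of striated muscle, rose by 2.36, Strit1, a small peptide that raises calcium pump activity, by 2.60 and the pacemaker channel Hcn2 by 2.65.

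Few endothelial list genes passed with day. Hey2, a Notch target, had 23.7 and 41.4 CPM at day 3 and 6.25, 8.58 and 6.34 CPM at day 7 (-2.09, SE 0.39, limma adjusted p = 0.011), and was the only one of 11 Notch genes to pass. In other spots it had 41.0, 35.7, 10.3, 11.98 and 13.5 CPM, so the fall was shared by the rest of the sections. The median was -0.01 over the pan-endothelial genes and 0.16 over the capillary genes, and none of either list passed. Fabp4 differed by -0.07 (SE 0.19) and Kdr by -0.02 (SE 0.18) between days, and both turned positive with median-of-ratios scaling.

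All 12 cell cycle genes were lower at day 7 (median -0.67) and 10 of them did not overlap between days, but none passed. Pcna, the replication clamp, had 186, 152, 125, 83.2 and 98.9 CPM (-0.67, limma adjusted p = 0.14), and Mcm2, a subunit of the replication helicase, had 71.9, 57.5, 38.4, 25.1 and 38.2 CPM (-0.88, limma adjusted p = 0.16). All 11 macrophage genes were lower (median -0.97), of which Csf1r, the receptor for colony stimulating factor 1, passed (-1.86, limma adjusted p = 0.023). Without MI day 3 this median was -0.47 with 3 of 11 genes positive. Of the mural genes, the pericyte gene Vtn was higher (2.85) and the smooth muscle gene Cnn1 lower (-2.87), the second with 58.4 CPM in MI day 3 and 1.83 to 5.96 CPM in the other sections.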

How the data were processed

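Spatial transcriptomes (10x Visium) of 5 heart sections were used, 1 per heart. The authors aligned reads to mm10/GRCm38 with Space Ranger, corrected depth with sctransform in Seurat, and transferred cell type scores from single-nucleus data. The deposited files give, for each spot, the raw UMI count, 11 scores (each a fraction from 0 to 1) and the position. The deposited gene table of sham day 3 holds raw UMI counts, while the other 4 hold depth-corrected counts (sctransform), which were treated as a score and not as reads. A count test was therefore not used, although it had been planned for raw counts throughout.

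Spots with at least 1000 UMIs were kept, scaled to CPM over 13711 shared genes and averaged per section and kind. limma 3.58.1 (R 4.3.3) with a mean-variance trend was fitted on log2(CPM + 1) over genes with at least 1 CPM in at least 2 profiles, so fold changes of low genes are understated, and p-values were adjusted by Benjamini-Hochberg over all genes. EC against other and EndoEC spots were blocked by section. MI and day were fitted together, and the MI effect was compared between kinds on the within-section differences. All fits were also run on simulated data with capped noise, which does not show how well they hold in these sections. The outcome is not reported here. Gene positions are from GENCODE M21. Shares and positions were tested by exact permutation over sections.

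Named genes were the label genes, members of 25 fixed lists, and in each comparison the 10 largest rises and falls with at least 20 CPM and the same direction in every section or no overlap, without mitochondrial, haemoglobin and Y-linked genes and Xist. Not all of these are printed, and some results are not reported here. Genes that passed between MI and sham, and the mitochondrial genes, were also named after their values were seen. The members and lists were chosen with earlier results of these data known. Some gene names had turned into dates in 2 tables (18 and 19 names) and were left out.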

Additional observations from a re-analysis of the deposited data

Results flagged for a closer look

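For 3 genes the effect of MI differed between EC-dominant and other spots by the test of the difference itself. Igfbp5 differed by 1.19, Mfap4 by 0.74 and Mgp by 0.68 on the log2 scale, each with the larger rise in EC-dominant spots. In MI day 3, the section with the highest level of each gene in EC-dominant spots, the 22 members lay near the middle of the section and carried the highest Plvap level of any members (29.3 CPM).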

How the results depend on the processing

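Counts are given as higher and lower genes. EC-dominant against other spots had 80 and 73, and 50 and 96 with median-of-ratios scaling, 23 and 23 against touching spots only, and 0 and 0 without the section block (266 and 236 at an unadjusted p under 0.05). Leaving out 1 section gave 37 to 91 and 37 to 80, with the fewest without MI day 7 replicate 2 (37 and 37) and sham day 7 (43 and 37). EC-dominant against EndoEC-dominant spots had 14 and 67 without the section block, and 65 to 122 and 167 to 326 with 1 section left out, with the fewest without sham day 3 (65 and 167). MI against sham had 30 and 3 with no filter, 11 and 1 for EC scores at least 10 points above the next, 32 and 3 for summed values, 28 and 3 with median-of-ratios scaling, and 2 to 132 and 0 to 30 with 1 section left out. The MI effect in EC-dominant against other spots had 6 and 1 with a pseudocount of 5 CPM, 5 and 1 at 5000 UMIs, 5 and 1 for summed values, 0 and 0 with median-of-ratios scaling (355 and 337 unadjusted), and 0 to 92 and 0 to 75 with 1 section left out, the most without sham day 7. Day 7 against day 3 had 85 and 42 with median-of-ratios scaling, and 5 to 59 and 8 to 113 with 1 section left out, the fewest without MI day 7 replicate 1. The causes were not tested. The difference in EC share between MI and sham ran from -1.37 points without MI day 7 replicate 1 to 2.47 points. Against CM1-dominant spots, the mean difference in the members' neighbours was positive for CM4 (4.47 points, higher in 3 of 5 sections), fibroblasts (2.20, 3 of 5) and macrophages (0.22, 4 of 5) and negative against all other spots, with no test passed. Against all other spots, the CM4 difference ran from -2.47 without MI day 7 replicate 2 to 0.11 without sham day 3. Of the named genes, Aqp1 in MI against sham ran from -0.64 without sham day 7 to 0.073 without either day 3 section, Kdr from -0.10 without MI day 7 replicate 2 to 0.00237 without MI day 7 replicate 1, and Cdh5 from -0.041 without sham day 7 to 0.069 without either day 3 section (-0.011 with median-of-ratios scaling, 0.12 for EC scores at least 10 points above the next). From day 3 to day 7, Fabp4 (-0.07) ran from -0.17 without MI day 7 replicate 2 to 0.015 without MI day 7 replicate 1 (0.092 with median-of-ratios scaling), and Kdr (-0.02) from -0.077 to 0.026 without the same sections (0.14 with median-of-ratios scaling, 0.016 with mitochondrial and haemoglobin genes left out, 0.011 for EC scores at least 10 points above the next). None of these 5 differences passed the test with all sections. For MI against sham and for the days, no paired analysis was possible because the labels number replicates only within MI day 7. The comparisons between kinds of spot were paired by section. Depth limits the genes under 20 CPM most, since 22 to 80 spots stand behind each mean.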
